A study of Homo sapiens with 4 samples.

Results

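The tumour necrosis factor (TNF) superfamily is a family of cytokines that are made as membrane proteins on the cell surface, act there as trimers or are cut off into the medium, and bind receptors of the TNF receptor superfamily on other cells. Several of them, such as TNFSF9 and CD70, give T cells a second, costimulatory signal, while TNF and LTB act in inflammation and in lymphoid tissue and TNFSF10 can trigger death of tumour cells. TNF and LTB are known NF-kB targets, and TNFSF10 is known to be induced by interferon, in epithelial cells among others. The 9 ligand genes TNF, LTB, TNFSF4, TNFSF9, TNFSF10, TNFSF13B, TNFSF14, TNFSF15 and CD70 were described here. Their 11 probes are those of 31741 on the array whose single annotated symbol was one of these names, and they stand for 9 of 18255 genes. The members were chosen by their measured differences between these same arrays, so their values are a description and no test was run on them.

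RNA came from A549, an established human lung adenocarcinoma cell line, 48 h after transfection, and was hybridised as Cy5-labelled material to 4 arrays. The groups were an siRNA against PML (siPML), a control siRNA (siCtrl), overexpression of WDR4 (WDR4) and its vector control (vector), with 1 array each. PML is the scaffold of nuclear bodies, and WDR4, a partner in tRNA methylation, has also been described as an adaptor that directs PML to a ubiquitin ligase, so the design asked whether loss of PML and gain of WDR4 change the same transcripts. All 4 groups are transfected cultures, and no untransfected cells were analysed here. With no replicates, the spread between cultures is unknown, and higher and lower describe single arrays. In bulk RNA, fewer cells that express a gene and less RNA per cell cannot be told apart.

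Levels are deposited intensities in arbitrary units, and a difference is that of log2(intensity + 1). Its technical standard error (SE) was estimated from pairs of readings that could be recovered from the deposited values between 10 and 600 units. It leaves out the variation between cultures, was taken from the range of 300 to 600 units for brighter probes, and is not given below 10. Levels of different probes are not comparable with each other. Median intensities of the arrays were 118 on siPML, 106 on siCtrl, 134 on WDR4 and 121 on vector. The brightest PML probe read 506 on siPML against 853 on siCtrl (-0.75), and 5015 on WDR4 against 3840 on vector, and the 3 dimmer PML probes were lower on siPML too (-0.28 to -1.44). The brighter of 2 WDR4 probes read 4708 on WDR4 against 1140 on vector, while the other read 890 against 1191. On the siRNA arrays the brighter read 1271 on siPML against 2350 on siCtrl (-0.89), and the other 1501 against 2226 (-0.57). Both were lower on vector than on siCtrl too (-1.04 and -0.9). The brighter probe was thus higher on WDR4 by 2.05 against vector but by 1.0 against siCtrl. Of the epithelial and A549 markers, ALDH1A1 stood at the scanner's limit on every array and KRT7 read 9855 to 16456, while KRT8 was dim at 42.4 to 71.3. Of 9 housekeeping genes above the filter, 2 were 2-fold lower on siPML, where 4.27% of all genes above the filter were. They were HPRT1 at 2144 on siPML against 8720 on siCtrl (-2.02) and PPIA at 742 against 1566 (-1.08). On vector, PPIA (571, -1.45) and PGK1 (527 on vector against 1249 on siCtrl, -1.24) were 2-fold lower than on siCtrl, where 3.14% were. Changes of this size thus also occurred among genes often used as a standard. The median of the housekeeping list was 0.10 on siPML against siCtrl and -0.18 on vector against siCtrl. Of 14 leukocyte markers, the pan-leukocyte gene PTPRC read at most 7.97 on either of its probes. CD14 and CD3D were the exceptions, with means above the intensity of 223 used below as a filter, though the second CD3D probe read at most 5.01.

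The sequences upstream of 4 of the genes are shown because these carried the largest differences below and a promoter sequence (GRCh38.p14) was at hand for them. This was so for 8 of the 9 members, and CD70 had none in the set used. Each run is the 250 bases before the listed start, 5′ to 3′ on the gene's strand. TNFSF9 lies on the plus strand at chr19:6530776-6531025, TNFSF10 on the minus strand at chr3:172523431-172523680, LTB on the minus strand at chr6:31582426-31582675 and TNF on the plus strand at chr6:31575315-31575564. Capitals mark matches to the motifs searched.
TNFSF9: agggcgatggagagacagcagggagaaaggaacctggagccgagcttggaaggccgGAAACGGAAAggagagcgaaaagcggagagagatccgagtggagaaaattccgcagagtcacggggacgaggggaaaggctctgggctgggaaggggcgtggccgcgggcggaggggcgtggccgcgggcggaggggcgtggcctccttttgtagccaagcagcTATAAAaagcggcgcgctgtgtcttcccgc
TNFSF10: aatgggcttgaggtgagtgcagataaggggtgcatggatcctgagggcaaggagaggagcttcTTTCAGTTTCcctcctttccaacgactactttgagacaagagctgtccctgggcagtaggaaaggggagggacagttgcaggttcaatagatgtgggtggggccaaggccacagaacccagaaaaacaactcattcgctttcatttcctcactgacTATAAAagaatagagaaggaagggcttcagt
LTB: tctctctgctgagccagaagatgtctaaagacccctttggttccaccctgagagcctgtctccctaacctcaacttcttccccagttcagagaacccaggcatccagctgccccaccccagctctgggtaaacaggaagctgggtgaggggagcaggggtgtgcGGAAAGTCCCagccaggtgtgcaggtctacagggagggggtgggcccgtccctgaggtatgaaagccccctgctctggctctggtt
TNF: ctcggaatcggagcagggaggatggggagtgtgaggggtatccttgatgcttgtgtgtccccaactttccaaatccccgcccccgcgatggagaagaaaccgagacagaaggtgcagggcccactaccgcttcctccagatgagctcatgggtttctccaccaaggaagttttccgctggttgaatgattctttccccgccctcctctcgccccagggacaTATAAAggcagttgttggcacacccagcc

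The motifs searched on both strands were the NF-kB consensus, the core of the interferon-stimulated response element (GAAANNGAAA), the AP-1 element (TGANTCA) and the core of the hypoxia response element (ACGTG), and the TATA box (TATAAA) was searched on the gene's strand. The NF-kB consensus was found upstream of LTB, 86 to 77 bases before the start and on the other strand, and upstream of TNFSF14, where 2 matches overlap. It was found in 9.57% of all 27305 promoter windows of this length. The interferon element core, present in 3.07% of all windows, occurred before TNFSF10 on the other strand, at 187 to 178 bases, and before TNFSF9 at 194 to 185 bases. A TATA box, present in 7.17%, preceded TNF, TNFSF9 and TNFSF10 at about the same distance, with its first base 29, 30 and 31 bases before the start. The AP-1 element (6.6% of windows) occurred before TNFSF14 and TNFSF15, and the hypoxia element core (18.7%) before 0 of the 8 members. These are matches of letters in a short window and say nothing of whether a factor binds.

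**Figure D1:**
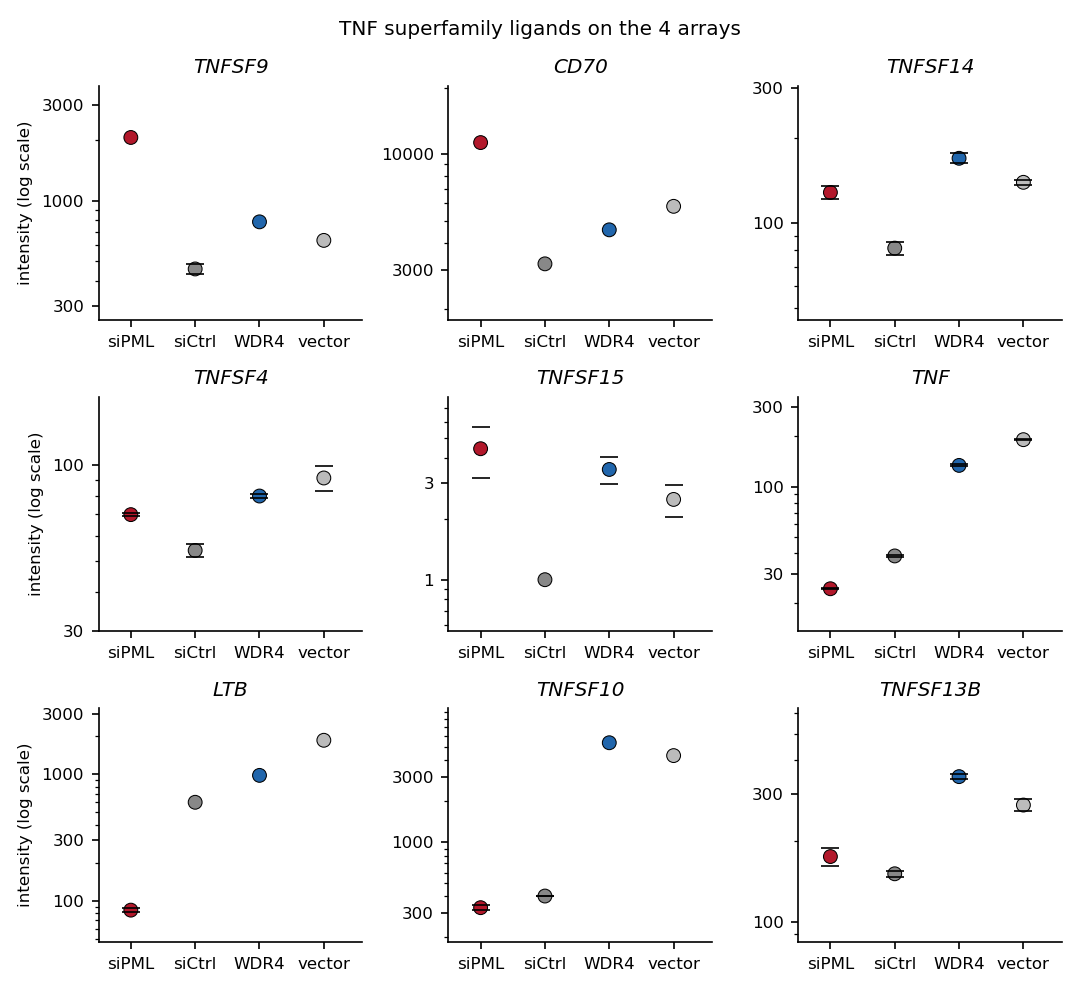
Intensity (log scale, arbitrary units) of the brightest probe of each ligand gene on the siPML, siCtrl, WDR4 and vector arrays, 1 array each. Short bars are the 2 readings behind a value where both could be recovered; TNFSF9 and CD70 are highest on siPML, LTB is lowest there, and TNFSF10 and TNF are high on both plasmid arrays.

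The costimulatory ligands TNFSF9 and CD70 both read highest on siPML. TNFSF9, the ligand of 4-1BB (TNFRSF9) on activated T and NK cells, read 2060 on siPML against 459 on siCtrl, and 786 on WDR4 against 636 on vector. The siPML array stood alone, 4.49-fold above its control, a log2 difference of 2.16 (technical SE 0.11). A larger one was found for 6 of the 9128 genes above the filter and 72 of all 18255. The other 3 arrays followed in the order WDR4, vector, siCtrl, each step larger than 2 technical SE. Against the vector array, which also lacks the siRNA against PML, TNFSF9 on siPML was still higher by 1.69 (SE 0.10).

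CD70, which binds CD27 on T and B cells, read 11296 on siPML against 3205 on siCtrl, and 4563 on WDR4 against 5825 on vector. It was 3.53-fold higher on siPML than on siCtrl (1.82, SE 0.11), with 23 genes of the 9128 and 129 of all 18255 above it. Its order on the remaining arrays was vector, WDR4, siCtrl, the reverse of TNFSF9 for the plasmid pair. Against the vector array the siPML value was higher by 0.96 (SE 0.10), short of 2-fold.

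TNFSF9, CD70 and TNFSF14 are direct neighbours on chromosome 19, with no other protein-coding gene between them in the RefSeq list. TNFSF14 (LIGHT), a ligand of TNFRSF14 and of the lymphotoxin receptor, read 128 on siPML against 81.4 on siCtrl (0.65, SE 0.15), and 169 on WDR4 against 139 on vector. Its dimmer probe read 33.2 on siPML against 22.0 on siCtrl, and 34.5 on WDR4 against 32.0 on vector. Both probes were lowest on siCtrl, and the siPML and vector values did not differ by more than 2 SE on either probe. Within 5 protein-coding genes of CD70 lie SLC25A23, CRB3, DENND1C, TUBB4A, C3, GPR108, TRIP10 and SH2D3A. Of these, only the dim TRIP10 was 2-fold higher on siPML, at 105 against 50.3 on siCtrl (1.05), while the others differed by -0.08 to 0.60. C3, the complement component, was instead higher on vector than on siCtrl, at 13072 against 5702 (1.20).

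**Figure D2:**
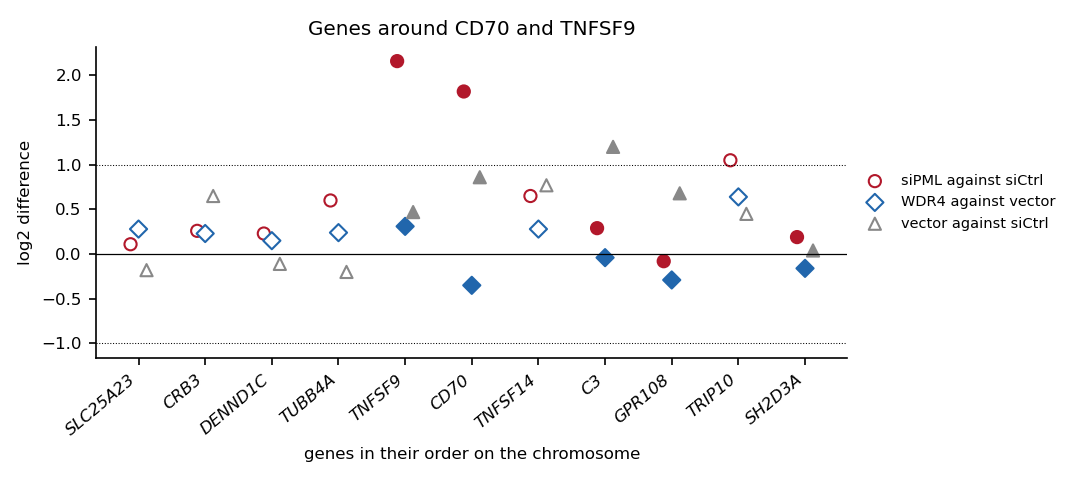
Log2 differences (y axis) of the genes with a probe around CD70 and TNFSF9, in their order on chromosome 19 and at equal spacing. Filled symbols are genes above the intensity filter and open symbols dimmer genes; TNFSF9 (2.16) and CD70 (1.82) stand above their flanking genes in siPML against siCtrl, and dotted lines mark 2-fold.

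The 2 other ligands with costimulatory roles were dim. TNFSF4 (OX40 ligand) read 69.9 on siPML against 53.9 on siCtrl (0.37, SE 0.18), and 80.0 on WDR4 against 91.2 on vector (-0.19, SE 0.14). Its readings were 70.9 and 69.0 on siPML against 56.4 and 51.5 on siCtrl, and 81.4 and 78.6 on WDR4 against 82.9 and 99.6 on vector. Neither pair overlapped, but the vector and WDR4 values, and the WDR4 and siPML values, lay within 2 SE of each other. Readings can thus fail to overlap where values lie within 2 SE. How often this happens among all probes was not counted. TNFSF15 (TL1A), which costimulates T cells through TNFRSF25, read 4.43 on siPML against 1.00 on siCtrl, and 3.5 on WDR4 against 2.49 on vector. All 4 values lay below the lower decile of probes on their arrays, 5.52 to 7.98, so its difference of 1.44 is that of a gene near the bottom of the scale, and it was 0.26 with 16 added before log2.

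LTB and TNF read low on siPML and high on the plasmid arrays. LTB (lymphotoxin beta), which joins lymphotoxin alpha in a membrane trimer that binds LTBR, read 84.3 on siPML against 601 on siCtrl, and 981 on WDR4 against 1859 on vector. It was 7.12-fold lower on siPML than on siCtrl (-2.82, SE 0.16), and 3 of the 9128 genes and 8 of all 18255 had a more negative difference. All neighbouring steps in the order vector, WDR4, siCtrl, siPML exceeded 2 SE. The promoter of LTB printed above holds an NF-kB match, as did 9.57% of all windows, and its part in these levels was not tested.

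TNF, the founding inflammatory cytokine of the family, lies next to LTB on chromosome 6. It read 24.5 on siPML against 38.5 on siCtrl (-0.63, SE 0.21), and 134 on WDR4 against 191 on vector (-0.51, SE 0.09). The recovered readings were 24.6 and 24.4 on siPML against 37.9 and 39.1 on siCtrl, and 137 and 132 on WDR4 against 194 and 189 on vector. TNF thus had the same order of arrays as LTB. LTA, on the other side of TNF, was close to the bottom at 9.09 on siPML against 7.46 on siCtrl, and 15.0 on WDR4 against 15.5 on vector.

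TNFSF10 and TNFSF13B, both known as interferon-induced in other cells, read higher on the plasmid arrays than on the siRNA arrays, but to unlike degrees. TNFSF10 (TRAIL), the ligand of the death receptors TNFRSF10A and TNFRSF10B, read 331 on siPML against 403 on siCtrl (-0.28, SE 0.11), and 5392 on WDR4 against 4338 on vector (0.31, SE 0.08). The plasmid pair lay far above the siRNA pair, and vector was 10.8-fold above siCtrl (3.43, SE 0.09). A second probe of TNFSF10 was near background, at 3.48 on siPML against 12.1 on siCtrl, and 7.53 on WDR4 against 21.4 on vector, so its direction in WDR4 against vector was opposite to that of the bright probe. TNFSF13B (BAFF), a survival factor of B cells, read 175 on siPML against 151 on siCtrl (0.21, SE 0.12), and 347 on WDR4 against 272 on vector (0.35, SE 0.08). On vector against siCtrl it was higher by 0.84 (SE 0.10), short of 2-fold, with 1221 of the 9128 genes above it. CD70 (0.86), TNFSF14 (0.77) and TNFSF4 (0.75) differed about as much there. The mean of TNFSF13B, 7.81 on the log2 scale, lies at the filter itself.

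Genes were counted above the filter, a mean log2 level of at least 7.81 (about 223 units), which 9128 genes and 5 of the 9 members passed: TNFSF9, CD70, LTB, TNFSF10 and TNFSF13B. LTB passed through its levels on the other 3 arrays, since its value on siPML was below 223, and TNFSF13B through the plasmid arrays alone. On siPML against siCtrl, 2 of the 5 were at least 2-fold higher, where 2.3% of all genes were, and 1 was at least 2-fold lower, where 4.27% were. Without the filter, 3 of 9 were higher (4.02% of 18255 genes), the third being TNFSF15, and 1 lower (3.17%). Nothing is read from these counts, since the differences were in view when the members were chosen. The median difference was 0.21 over the 5 and 0.37 over all 9, beside 0.01 and 0.13 over all genes, as TNFSF9 and CD70 went one way and LTB the other.

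On WDR4 against vector, 0 of the 5 and 0 of all 9 members were 2-fold different in either direction. Of all genes above the filter, 0.362% were 2-fold higher and 0.285% 2-fold lower, and without the filter 2.21% and 0.444%. LTB came closest, 1.89-fold lower on WDR4 (-0.92, SE 0.08), and TNF followed at 1.42-fold lower. CD70 differed by -0.35 (SE 0.08), while TNFSF9 was 1.24-fold higher (0.31, SE 0.08). The median was 0.31 over the 5 members, beside -0.04 over all genes above the filter. TNFSF9 was higher and LTB lower in both designed comparisons, with differences of 2.16 and 0.31 for TNFSF9 and -2.82 and -0.92 for LTB. TNF was lower in both too, and TNFSF13B, TNFSF14 and TNFSF15 were higher in both. CD70 differed by 1.82 on siPML and -0.35 on WDR4, and TNFSF4 and the brighter TNFSF10 probe also had opposite signs. The share of all genes with the same sign in both comparisons was not counted. For WDR4 against vector, 1245 of the 9128 genes had a larger difference than TNFSF9, and 38 a more negative one than LTB. Against siCtrl, LTB on WDR4 was instead higher by 0.71, and TNFSF9 was higher by 0.78. Whether the manipulations share an effect was not tested.

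**Figure D3:**
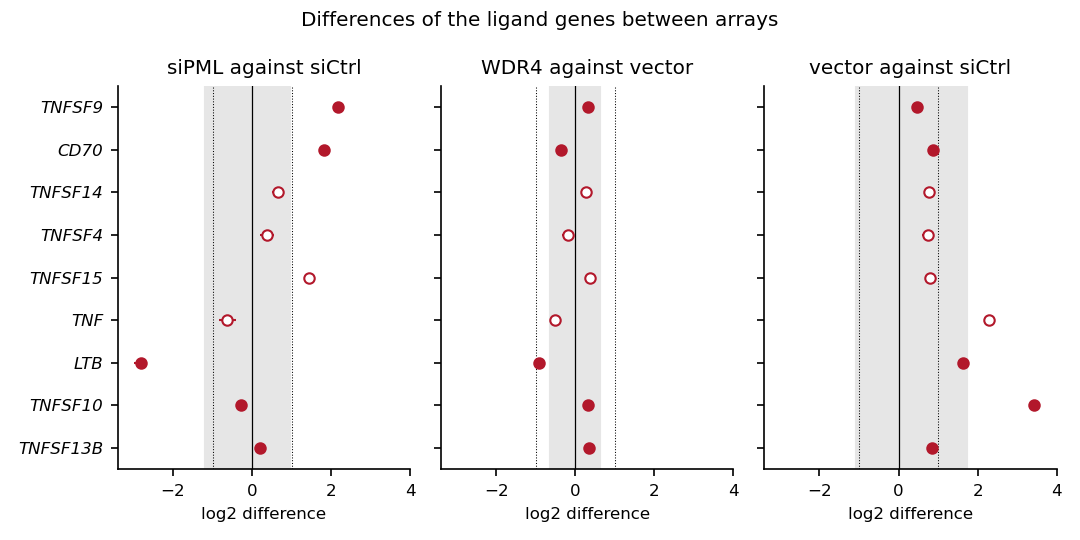
Log2 difference (x axis) of each ligand gene in siPML against siCtrl, WDR4 against vector and vector against siCtrl. Bars are ± 1 technical SE (none below 10 units), and the grey band holds the central 95% of the 9128 genes above the filter. Dotted lines mark 2-fold, and open circles are genes below the filter. TNFSF9, CD70, LTB and the dim TNFSF15 lie outside the band in the first panel, LTB in the second, and TNF and TNFSF10 in the third.

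The vector and siCtrl arrays lack both manipulations, yet all 9 members read higher on vector than on siCtrl, by 0.47 (TNFSF9) to 3.43 (TNFSF10). At least 2-fold higher were 2 of the 5 members above the filter, TNFSF10 and LTB (1.63, SE 0.09), where 9.43% of genes were, and 3 of all 9 with TNF (2.28, SE 0.13), where 9.28% were. None was 2-fold lower, where 3.14% of genes above the filter and 2.94% of all genes were. The members' medians were 0.86 and 0.84, beside 0.10 and 0.03 over all genes. Kind of transfection, culture and array cannot be told apart in this comparison. Type I interferon-induced genes moved with it, as all 24 with a probe were 2-fold higher on vector than on siCtrl with a median of 4.16, where 9.28% of all genes were. The count of 22 of 22 above the filter is partly fixed by the filter, since 8 of the 22 lay below its level on both siRNA arrays. On siPML, 12 of the 24 were 2-fold lower than on siCtrl, where 3.17% of all genes were, and their median was -0.96. On WDR4 against vector the median was 0.31, with 2 of the 24 at least 2-fold higher, where 2.21% were. The summed intensity of these interferon-induced genes, to which bright genes contribute most, was 6247 on siPML against 15022 on siCtrl. It was 269203 on WDR4 against 223618 on vector. The part of the interferon-induced genes in the levels of TNFSF10, TNF and LTB was not tested, nor was that of the NF-kB genes given below. This comparison shares the siCtrl array with siPML against siCtrl and the vector array with WDR4 against vector, so the values are not independent.

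No receptor gene above the filter was 2-fold different on siPML from siCtrl, where 2.3% of all genes were higher and 4.27% lower. TNFRSF9, the receptor of TNFSF9, read 313 on siPML against 380 on siCtrl (-0.28), and 2941 on WDR4 against 3115 on vector (-0.08), while vector was higher than siCtrl by 3.03. Its dimmer probe gave 28.9, 29.6, 209 and 277 in the same order of arrays, so both probes were high on the plasmid arrays. CD27, the receptor of CD70, was near background at 17.8 on siPML against 14.5 on siCtrl, and 24.5 on WDR4 against 16 on vector. Receptors of TNFSF4 and TNFSF13B were below the filter too, with TNFRSF4 at 67.5 to 88.0, TNFRSF13B at 100 to 129, TNFRSF13C at 26.9 to 49.0 and TNFRSF17 at 12.5 to 24.5.

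LTBR, the receptor of LTB and TNFSF14, varied little, at 1330 on siPML against 1164 on siCtrl (0.19), and 1149 on WDR4 against 1416 on vector (-0.30). TNFRSF1A, the main TNF receptor of epithelial cells, read 7988 on siPML against 8008 on siCtrl, and 4738 on WDR4 against 5080 on vector. The inducible TNFRSF1B was dim but high on the plasmid arrays, at 39.4 on siPML against 21.5 on siCtrl, and 289 on WDR4 against 200 on vector, and its second probe read 20.4, 15.0, 265 and 202. TNFRSF14 read 314 on siPML against 167 on siCtrl (0.91), and 357 on WDR4 against 293 on vector (0.28). TNFRSF25, which binds TNFSF15, read 719 on siPML against 541 on siCtrl (0.41), and 1364 on WDR4 against 868 on vector (0.65). A dimmer TNFRSF25 probe read 56.5 on siPML against 45.4 on siCtrl, and 63.5 on WDR4 against 29.6 on vector (1.08). The decoy receptor gene TNFRSF6B had no probe with a single symbol.

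The receptors of TNFSF10 differed from one another. The death receptor TNFRSF10A was higher on siPML at 3193 against 1897 on siCtrl (0.75), and read 2933 on WDR4 against 2981 on vector. TNFRSF10B read 7561 on siPML against 6160 on siCtrl (0.30), and 10764 on WDR4 against 8910 on vector (0.27), while a second probe above the same filter intensity had the opposite direction in the plasmid pair, at 1851 on WDR4 against 2298 on vector (-0.31). The decoy TNFRSF10D went the other way on the plasmid arrays, at 1091 on siPML against 1342 on siCtrl (-0.30), 869 on WDR4 against 579 on vector (0.58), and 2-fold lower on vector than on siCtrl (-1.21). TNFRSF11B (osteoprotegerin), a soluble decoy, read 1626 on siPML against 1936 on siCtrl, and 1456 on WDR4 against 1254 on vector, and the decoy TNFRSF10C was dim at 43.9 to 88.0. Of 14 receptor genes above the filter, of 28 with a probe, 0 were 2-fold different on siPML or on WDR4 from their controls. Their medians were 0.24 and 0.17. Of all genes above the filter, 2.3% were 2-fold higher and 4.27% lower on siPML, and 0.362% and 0.285% on WDR4. On vector against siCtrl, 2 receptor genes were 2-fold higher (TNFRSF9 and CD40) and 1 lower, beside 9.43% and 3.14% of all genes.

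**Figure D4:**
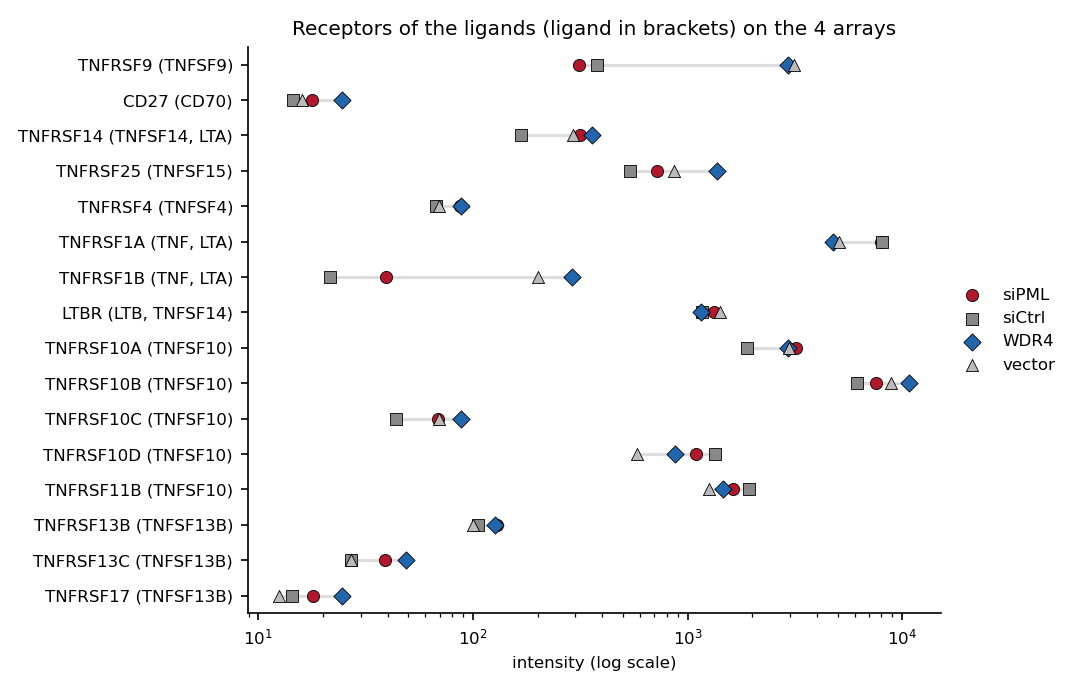
Intensity (x axis, log scale, arbitrary units) of the brightest probe of each receptor on the 4 arrays, with the ligands it binds in brackets; positions of different genes are not comparable. TNFRSF9 and TNFRSF1B are separated into a low siRNA pair and a high plasmid pair.

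The other ligands of the family were mostly dim. Of 8 with a probe, TNFSF12 (TWEAK) alone passed the filter, at 803 on siPML against 677 on siCtrl (0.25), and 1069 on WDR4 against 1158 on vector (-0.11). FASLG read 35.5 to 46.9, CD40LG 13.0 to 15.6, TNFSF11 20.1 to 30, TNFSF8 69.6 to 114, TNFSF18 36.9 to 91.5 and EDA 114 to 170 on their brighter or single probes. The only probe of TNFSF13 carries several symbols and was not used.

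Downstream of the receptors, 2 of 22 adaptor and proximal signalling genes above the filter were 2-fold higher and 0 lower on siPML than on siCtrl, beside 2.3% and 4.27% of all genes. They were MAP3K14, the kinase of the noncanonical NF-kB pathway, at 3319 on siPML against 1526 on siCtrl (1.12), and the ubiquitin ligase BIRC3 at 2285 on siPML against 1141 on siCtrl (1.00). The list's median was 0.13 there, and -0.09 on WDR4 against vector. In the latter 0 of its genes were 2-fold different, beside 0.362% of all genes higher and 0.285% lower. Among 21 NF-kB subunits and induced genes, NFKB2, the noncanonical subunit, was higher on siPML at 569 against 225 on siCtrl (1.34), while the chemokines CCL2 (-1.31) and CXCL2 (-1.03) were lower. That list had a median of -0.05 on siPML against siCtrl, and -0.28 on WDR4 against vector with 0 genes 2-fold different, beside the same shares. On vector against siCtrl its median was 1.35, with 13 genes 2-fold higher, beside 9.43% of all genes. ICAM1 (3.07) and TNFAIP3 (2.70) were among the 13.

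Genes that shed, process or destabilise TNF ligands were the last group, with 11 above the filter. ADAM17, the protease that releases TNF, read 3418 on siPML against 2720 on siCtrl (0.33), and 4818 on WDR4 against 4276 on vector (0.17). SPPL2A, an intramembrane protease that cuts the remaining stub of TNF, was lower on siPML at 6710 against 13577 on siCtrl (-1.02), the only one of 11 to reach 2-fold there, beside 4.27% of all genes. ZFP36L1, which promotes decay of AU-rich mRNAs, was the only one of 11 that was 2-fold higher on vector than on siCtrl (1.43), beside 9.43% of all genes. None was 2-fold different on WDR4 against vector, where 0.362% of all genes were higher and 0.285% lower. The list's median was 0.06 there, beside 0.10 on siPML against siCtrl.

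The genes whose 4 levels were most like those of each member were found by the Euclidean distance between log2 profiles, each less its own mean over the 4 arrays. For TNFSF9 they were MARCHF4 (distance 0.33), LONRF1 (0.45), CBX2 (0.46), TBC1D8 (0.46) and TCN1 (0.49). CD70 shared CBX2 (0.34) with TNFSF9 and was nearest to GPR37 (0.24), FKBP7 (0.31) and BTG2 (0.33), with TAP2 at 0.35. TNFSF10 was nearest to TMEM140 (0.23), PPM1K (0.24), HERC5, SP110 and the RNA sensor gene RIGI (each 0.28). LTB had no close partner, as the nearest, IL11 and SLC30A7, lay at 0.89, followed by TIMP2 at 1.00, CIDEC at 1.03 and SNAP25 at 1.06. TNFSF13B was nearest to SLC12A7 (0.04), ZFP36 (0.06), MARCKS (0.06), ANPEP (0.08) and TUBB2B (0.10). With 4 arrays, such nearness describes these profiles only.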

How the data were processed

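RNA of transfected A549 cells was amplified and labelled with Cy5, per the labels' protocols. The deposited values, as the authors made them, are linear intensities, with 1 for each probe on each array. Neither scanner nor normalization was stated. That the scale is linear was read from the values, which reach the limit of a 16-bit scanner and fall below 0 for 23 to 42 probes an array.

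Negative values were raised to 0, and log2 was taken after adding 1. Of 31741 probes, 24658 had 1 symbol in the platform annotation, 1002 several and 6081 none. Symbols were updated for 2177 probes through RefSeq. The probe with the highest mean stood for its gene, and the filter kept genes at or above the median of all 18255.

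Between 10 and 600 units, 97.31% to 99.29% of values equalled the mean of 2 scaled whole-number readings, against at most 0.161% after a small shift. No source used here says what the readings are, so each group counted as 1 replicate. The SE of a value was taken as 1 SD of the log2 ratio of its readings divided by 2, within bins of intensity.

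Each group had 1 array, so nothing was tested, and the number of arrays limits the precision. Members and gene lists were chosen with earlier results of these data known. All members were named, with their receptors, the other ligands, PML and WDR4, and up to 4 genes of each other list by size of difference; values of flanking genes and of single markers were chosen after they were seen. Alternatives were quantile normalization, centring, 16 added before log2, the mean over probes, no or a stricter filter, 1.5-fold, and other control arrays. The steps were tested on simulated data. Python 3.11.15, numpy 2.4.6, pandas 2.3.3 and matplotlib 3.10.9 were used.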

Additional observations from a re-analysis of the deposited data

How the results depend on the processing

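The differences of TNFSF9, CD70 and LTB on siPML against siCtrl were 2.06 to 2.16, 1.71 to 1.82 and -2.92 to -2.62 over the scaling, pseudocount and probe alternatives. Against the vector array they were 1.69, 0.96 and -4.45, which takes CD70 below 2-fold. The count of members 2-fold different on siPML was 3 (2 higher, 1 lower), and 1 with the stricter filter, which only CD70 and TNFSF10 passed. Against the vector array it was again 3, but 1 higher and 2 lower, as CD70 left and TNFSF10 (-3.71) entered. Against the mean of both controls it was 4, with 2 higher and 2 lower. The mean over probes left 4 members above the filter in every comparison, as TNFSF10 fell below it. The members' median of 0.21 moved to 1.01 with that setting, 0.37 without a filter and 0.77 with the stricter filter. It was -0.64 against the vector array and -0.22 against the mean of both controls. On WDR4 against vector, the count of 0 became 1 (LTB) at 1.5-fold, 2 against siCtrl and 1 against both controls. The median of 0.31 there moved to -0.02 with the mean over probes, -0.02 with the stricter filter, 0.78 against siCtrl and 0.54 against both controls. On vector against siCtrl, the count of 2 became 1 with the mean over probes, where TNFSF10 still differed by 2.1 but was not counted. It became 1 with the stricter filter and 4 at 1.5-fold, and the median of 0.86 became 0.61 after centring and 2.14 with the stricter filter. TNFSF10 on WDR4 against vector was -0.54 with the mean over probes, against 0.31 with the brightest probe, which gives its near-background probe equal weight. Centring lowered every vector against siCtrl difference, with TNFSF9 at 0.22, and the median of all genes above the filter was -0.15 after it, against 0.10 before. No value of a member that was 2-fold different changed sign under any of these settings. This does not cover WDR4 against vector, where no member was 2-fold different. With siCtrl as the control, the WDR4 differences of LTB, TNF, CD70 and TNFSF4 turned from negative to 0.71, 1.78, 0.51 and 0.56. With vector as the control, the siPML differences of TNFSF4, TNFSF13B and TNFSF14 turned from positive to -0.38, -0.64 and -0.12. No paired analysis was possible because each group had 1 array. Dim members, such as TNFSF15 with 0.26 on siPML when 16 was added, are limited by their signal over background.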

Other observations

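The genes beside TNF and LTB on chromosome 6 were not lower on siPML as LTB was, except AIF1 by -0.10. They were looked at after their values were seen. LST1, a gene of myeloid cells next to LTB, read 54.3 on siPML against 1.49 on siCtrl, and 0.504 on WDR4 against 0.487 on vector. ATP6V1G2, a subunit of the vacuolar proton pump, read 198 on siPML against 30 on siCtrl (2.68), and 42 on WDR4 against 29.6 on vector. NFKBIL1 read 129 on siPML against 71.6 on siCtrl, and 183 on WDR4 against 263 on vector. AIF1, the nearest flanking gene above the filter, read 551 on siPML against 589 on siCtrl, and 538 on WDR4 against 396 on vector. LST1, ATP6V1G2 and NFKBIL1 are dim, and no test was run on them.

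The nerve growth factor receptor gene NGFR, a family member that binds neurotrophins, shared the high plasmid pair of TNFRSF9 and TNFRSF1B. It read 78.7 on siPML against 33.4 on siCtrl (1.21), and 261 on WDR4 against 287 on vector (-0.14), below the filter. EDAR, the receptor of ectodysplasin, was also dim and 2-fold higher on siPML, at 55.8 against 24.5 on siCtrl (1.15), and read 29.0 on WDR4 against 20 on vector. E-cadherin (CDH1), an epithelial marker, was lower on the array on which TNFSF9 and CD70 were highest, at 1374 on siPML against 5311 on siCtrl (-1.95). CD14 was the only one of 14 leukocyte markers lower on siPML, at 2852 on siPML against 9183 on siCtrl (-1.69). The other 13 read higher there, by 0.04 (MS4A1) to 2.28 (LYZ, dim at 32.9 on siPML against 6.01 on siCtrl), and the list's median was 0.32, beside 0.13 over all genes. Of the 8 epithelial and A549 markers above the filter, CDH1 alone was 2-fold lower on siPML, where 4.27% of all genes above the filter were. Whether CDH1 or CD14 bears on the ligands was not tested.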
